A study of Schizosaccharomyces pombe with 12 samples.

Results

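The proteasome genes of the fission yeast Schizosaccharomyces pombe were followed in wild type and in 3 deletion strains. They were taken from the deposited tables as the protein_coding genes whose product description contains the word proteasome, which gave 46 of 6888 listed genes, or 46 of 5118 protein_coding genes. Their descriptions place 7 in the alpha rings and 7 in the beta rings of the core particle. The regulatory particle accounts for 6 ATPases and 15 other subunits, 1 of which, SPCC18.17c, has no gene name. Another 4 are assembly factors, 2 are relatives of the proteasome regulator PI31 (fub1 and fub2), and 3 are associated proteins. The last 2, gid8 and gid9, are subunits of a ubiquitin ligase and were matched only because their descriptions mention proteasome-dependent breakdown, so the label does not describe them as proteasome subunits.

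Poly(A)-selected RNA was sequenced from 4 strains with 3 samples each, grown at 30 degrees in a rich yeast extract medium with adenine (YEA) and harvested in logarithmic phase. Per the labels, the wild type was h- L972 (L973 and L974 on the other 2 samples) and the rrp6Δ strain was h- and carried Leu1-32, His2, Ura4 DS/E, rrp6∆::KanMx6 and Otr1R(Sph1)::ura+. The med20Δ strain was h+ with leu1-32, ura4-D18 and med20:NAT, and the med20Δ rrp6Δ double mutant carried med20:natMX, rrp6∆::KanMx6, leu1-32 and ura4-D18 (ura4-D19 and ura4-D20 on the other 2 samples), with no mating type given. Whether these numbers mark different strains or alleles is not stated. By these labels, each mutant differed from wild type by auxotrophic alleles as well as by its deletion. The part of such alleles in any difference below cannot be told apart from that of the deletion. For med20Δ, the ura4 level given below went against the labelled ura4 allele. Med20 belongs to Mediator, through which transcription factors act on RNA polymerase II. Rrp6 is the nuclear exosome's own exonuclease and trims or degrades RNA. The series names 3 biological replicates per strain without saying whether they were separate cultures, so the p-values reflect only sample-to-sample spread, which may in part be technical.

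The proteasome degrades proteins that carry ubiquitin chains. Its core particle is a barrel in which rings of beta subunits, some of them proteases, are enclosed by rings of alpha subunits that gate the entry. The regulatory particle sits on the barrel, binds the ubiquitin chain, removes it and unfolds the substrate with a ring of ATPases. In yeasts its subunits are made in set proportions and put together with the help of dedicated chaperones, and PI31 proteins bind the core particle.

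The deposited tables hold the mean normalised signal of each strain, and the whole counts of single libraries were recovered from the digits of those means. All 46 genes were recovered in all 12 libraries, whose totals over recovered genes ran from 5805453 to 9680644 counts. A level below is a recovered count divided by the size factor of its library, and levels are compared between strains and not between genes. Libraries 1, 2 and 3 of a strain are numbered by the size of the recovered step and carry no replicate letter. The deleted genes went with their labels, with med20 at levels of 679 to 733 in wild type, 2.53 to 6.29 in med20Δ and 20.0 to 30.1 in the double mutant. For rrp6, the wild-type levels were 1085 to 2138, against 0.816 to 2.85 in rrp6Δ and 0.871 to 1.88 in the double mutant. The ura4 gene went against the allele named for the libraries labelled med20Δ, where its level was 2100 to 2776, against 1996 to 2701 in wild type and 1.88 to 5.22 in the double mutant. In rrp6Δ, labelled with Ura4 DS/E and Otr1R(Sph1)::ura+, ura4 was at 1185 to 1369, below all wild-type libraries. The authors' deposited table did not call it there (log2 -0.77, DESeq adjusted p = 0.166). The libraries labelled med20Δ are given as h+ and wild type as h-, yet none of the M-cell or P-cell genes was called between them in the authors' deposited table. Summed M-cell levels were 1833 to 2292 in wild type and 1624 to 1702 in med20Δ, and summed P-cell levels 1507 to 2739 and 2205 to 2639. The 4 libraries that stood apart below were library 1 of wild type and of med20Δ, and library 2 of rrp6Δ and the double mutant. They had negative loadings on the first component of the differences between libraries of 1 strain, and the other 8 had positive ones. This component was computed over the proteasome genes other than fub2, after the mean of these genes was taken out of each library. Loadings are centred within each strain, so every strain had to hold at least 1 library on each side. The first component of the 5988 genes tested, taken in the same way, held 46.9% of their remaining within-strain variance. It gave the same 4 libraries negative loadings.

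Few proteasome genes passed the test in any mutant, and those that did were mostly higher. At a DESeq adjusted p under 0.05 in the authors' deposited tables, 2 of 46 rose in med20Δ (fub1 and pre4), 1 rose in rrp6Δ (fub1) and 2 rose in the double mutant (fub1 and fub2). None fell in any of the 3 mutants. The same rule called 2.37% of all listed genes in med20Δ (1.12% higher and 1.25% lower), 5.97% in rrp6Δ (4.97% and 1%) and 15.3% in the double mutant (8.59% and 6.71%). limma on the recovered counts called the same genes in med20Δ and rrp6Δ, where its background was 4.31% and 8.15% of the genes tested, and 5 genes in the double mutant, where the background was 30% (16.4% higher and 13.6% lower): fub1, fub2, pre4 and pre3 were higher and rpn3 was lower. Unadjusted limma p-values under 0.05 were met by 7, 2 and 7 of the 46 genes, against backgrounds of 17.5%, 19.3% and 41.3%. With the 4 libraries that stood apart left out, limma called 2, 2 and 9 of the 46, against 4.18%, 8.45% and 36.4% of all genes tested. These libraries were picked by their loadings over the proteasome genes themselves, so the spread without them is smaller by construction. The calls made without them are therefore not independent of that choice.

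**Figure D1:**
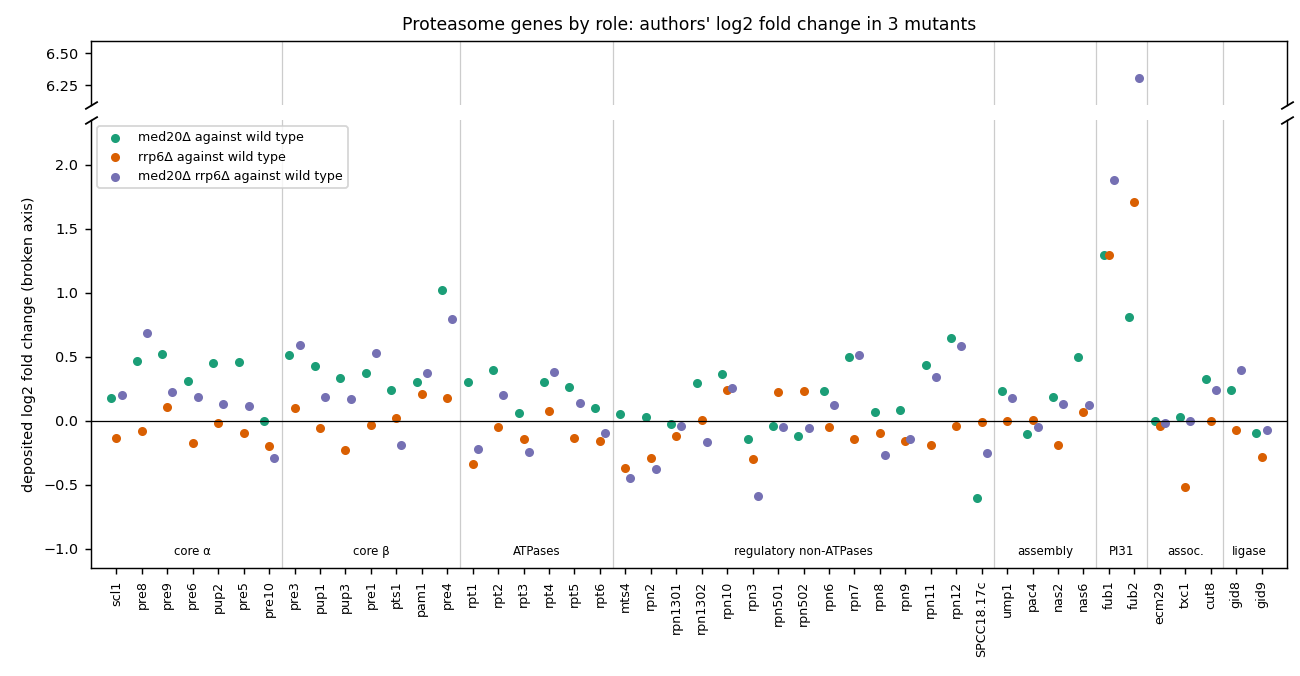
Authors' deposited log2 fold change of each of the 46 proteasome genes (x axis, grouped by role) against wild type in med20Δ, rrp6Δ and the double mutant, on a broken y axis. The green med20Δ points of the core rings lie at or above 0 except pre10 at -0.01, and the PI31 relatives fub1 and fub2 stand highest in rrp6Δ and in the double mutant, where fub2 is at 6.31.

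As a group the proteasome genes sat slightly high in med20Δ. The median log2 fold change in the authors' deposited table was 0.28 in med20Δ, against -0.03 over all protein_coding genes, and 38 of 46 values were above 0, against 46.4% of protein_coding genes. In rrp6Δ the median was -0.05, with 14 of 46 above 0 against 37% of protein_coding genes, whose own median was -0.12 in that table. In the double mutant it was 0.13, with 27 of 46 above 0 against 39%, and the protein_coding median was -0.18. Without med20Δ library 1 the limma median of the proteasome genes in med20Δ was 0.16, and without library 3 of the double mutant that of the double mutant was 0.22. Relative to the protein_coding medians the proteasome genes stood at 0.31, 0.07 and 0.30. The summed level of the 46 genes was 129882, 121661 and 129809 in wild type and 168562, 154028 and 131175 in med20Δ. It was 124276, 117494 and 111180 in rrp6Δ and 132783, 153336 and 124772 in the double mutant. The 3 med20Δ sums lay above all wild-type sums, the lowest of them by little, while the other 2 mutants overlapped wild type. As a percent of the recovered protein_coding counts, the sums were 1.61, 1.71 and 1.77 in wild type. They were 2.31, 2.04 and 1.75 in med20Δ and 2.11, 1.74 and 1.78 in rrp6Δ, which both overlap wild type. In the double mutant they were 2.29, 2.26 and 1.98, all above wild type. Which mutant stood apart in its sum thus depended on the scaling. Some stress markers were also higher in the strains without med20. Of 10, 4 were called higher in med20Δ and 5 in the double mutant, against 2.37% and 15.3% of all listed genes called. Deposited log2 values were above 0 for 8 and 7 of the 10. Below 0 were ctt1 (-0.52 and -0.34) and pyp2 (-1.33 and -0.64) in both, and gpd1 (-0.31) in the double mutant, none called. The summed level of the 7 markers recovered in every library was 12532 to 23856 in wild type and 29810 to 39590 in med20Δ. It was 15615 to 22860 in rrp6Δ and 37403 to 55958 in the double mutant. The part of the stress markers in the levels of the proteasome genes was not tested. In bulk cultures like these, a different share of cells and a different amount of RNA per cell cannot be told apart.

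The clearest gene of the set was fub1, predicted to encode the PI31 proteasome inhibitor, a protein known in mammals to inhibit the core particle in the test tube. Its level was 74.2, 64.8 and 96.6 in wild type and 234, 177 and 171 in med20Δ. In rrp6Δ it was 190, 191 and 186, and in the double mutant it was 258, 333 and 286. Every mutant library lay above every wild-type library, and the double mutant lay above both single mutants. The authors' deposited tables give a 2.45-fold rise in med20Δ (DESeq adjusted p = 0.0218), a 2.45-fold rise in rrp6Δ (adjusted p = 0.00911) and a 3.69-fold rise in the double mutant (adjusted p = 0.000221). limma gave log2 differences of 1.30 ± 0.23 (SE), 1.28 ± 0.23 and 1.90 ± 0.23, with adjusted p = 0.0059, 0.00309 and 5e-05. The double mutant was above each single mutant by less: 0.59 on the log2 scale against med20Δ (95% interval 0.10 to 1.09, limma adjusted p = 0.0996) and 0.62 against rrp6Δ (0.13 to 1.11, adjusted p = 0.107), and neither passed. In the RefSeq annotation (ASM294v3), fub1 is overlapped by the antisense RNA SPNCRNA.932 and, on its own strand, by the glutaredoxin gene grx2. Neither was called in any table. SPNCRNA.932 stayed at levels of 0.949 to 8.93 in all 12 libraries, while grx2 was at 233 to 428 in wild type and 319 to 995 in the double mutant.

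The most extreme value belonged to fub2, annotated as a PI31 regulator relative. Its counts were 9, 3 and 8 in the wild-type libraries, 17, 10 and 9 in med20Δ, and 30, 36 and 18 in rrp6Δ. The double mutant held 746, 182 and 1409 counts. At the level scale the wild-type values were 9.83, 3.35 and 10.3 and those of the double mutant 468, 158 and 1265, so the lowest double-mutant library was far above every library of the other strains. The 3 double-mutant libraries also differed more from each other than those of any other strain, with a mean of 630.3 ± 571 (SD, n = 3). The authors' deposited table has fub2 at a mean of 8.19 in wild type and 648 in the double mutant, a 79.2-fold rise (log2 6.31, DESeq adjusted p = 0.0162). That log2 value was the highest of the 5116 protein_coding genes in that table. limma gave 5.81 ± 0.61 (SE, adjusted p = 1.68e-05) on the log2(level + 1) scale, which understates changes of low genes.

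fub2 was not called in either single mutant. In med20Δ the levels were 17.5, 12.7 and 11.3, and in rrp6Δ they were 24.5, 34.1 and 16.98. Both sets lay above all 3 wild-type values without passing the test, with deposited log2 fold changes of 0.81 and 1.71 in the authors' tables (DESeq adjusted p = 0.912 and 0.0809). The limma 95% intervals were wide, -0.47 to 2.17 for med20Δ against 0.32 to 2.96 for rrp6Δ, and use 1 SE estimated over all 4 strains. Without library 2 of the double mutant, limma called fub2 in rrp6Δ (1.64, adjusted p = 0.0498). The double mutant was higher than med20Δ by 4.96 ± 0.61 on the log2 scale (limma adjusted p = 0.000177) and higher than rrp6Δ by 4.17 ± 0.61 (adjusted p = 0.000945). The interaction term, which asks whether the double mutant differs from the sum of both single effects, was 3.32 ± 0.87 for fub2 and did not pass (limma adjusted p = 0.19). Without library 2 of the double mutant it was 4.08 and passed (adjusted p = 0.0237), so that 1 library, the lowest of the 3 for fub2 and 1 of those that stood apart, decided this call; it did not pass when all 4 libraries that stood apart were left out.

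**Figure D2:**
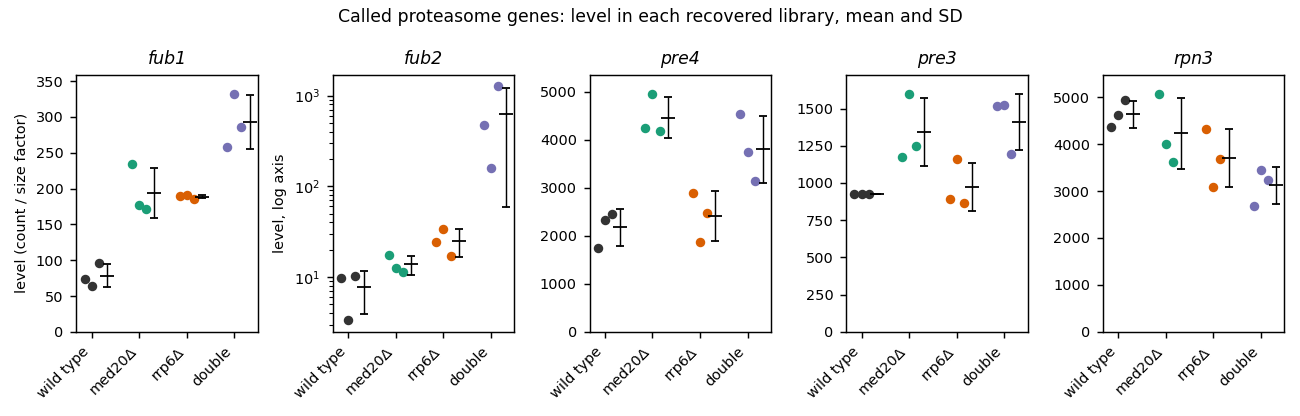
Level (recovered count divided by size factor, y axis; logarithmic for fub2) of the 5 proteasome genes called in any comparison, with 1 point per library in each strain and the mean and SD beside the points (n = 3). For fub1 all mutant points lie above wild type, and for fub2 the double-mutant points at 158, 468 and 1265 lie above all others.

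The neighbourhood of fub2 is shown because several genes beside it were called too. Upstream in the RefSeq order come the noncoding RNA SPNCRNA.446, the acid phosphatase gene pho1 and the phosphate transporter gene pho84. Downstream come the antisense RNA SPNCRNA.1695, which overlaps fub2 on the opposite strand, the predicted amino acid permease gene nrg1, the predicted esterase gene say1 and the antisense RNA nam3. nrg1 was at 52.5 to 74.2 in wild type, 111 to 120 in med20Δ, 504 to 547 in rrp6Δ and 679 to 828 in the double mutant. This permease gene was called in the authors' deposited tables for rrp6Δ and for the double mutant (log2 3.13 and 3.58, DESeq adjusted p = 9.26e-15 and 1.02e-14) and not in med20Δ (0.92, adjusted p = 0.325), where limma did call it (0.94, adjusted p = 0.0198). nam3 was called in all 3 of the authors' deposited tables, at 1.75, 2.46 and 3.47 (log2). Unlike fub2, nrg1 already had most of its difference in rrp6Δ alone: the double mutant exceeded rrp6Δ by 0.49 on the log2 scale for nrg1 and by 4.17 for fub2 (limma). say1 levels were 29.0 to 40.4 in wild type against 190, 69.7 and 56.6 in the double mutant, and it was not called by DESeq (adjusted p = 0.225 in the authors' deposited table) but was by limma (1.45, adjusted p = 0.0277).

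pho1 went its own way, and the authors' deposited tables give log2 values of -0.99 for med20Δ, 1.85 for rrp6Δ and 0.40 for the double mutant, with a call in rrp6Δ alone. pho84 was called lower in med20Δ and the double mutant (-1.63 and -1.84). The antisense SPNCRNA.1695 was at 3.28 to 5.15 in wild type and 8.77 to 12.6 in the double mutant and was not called (adjusted p = 0.42, DESeq, in the authors' deposited table). The libraries mark the strand, but the sources used here do not give the strand setting of the counting, so fub2 reads and antisense reads cannot be told apart with certainty.

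**Figure D3:**
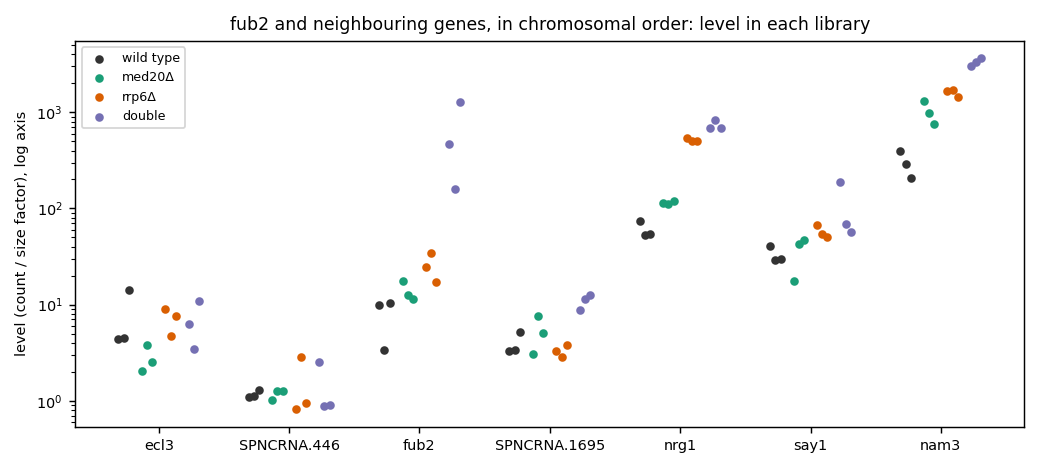
Level (recovered count divided by size factor, logarithmic y axis) of fub2 and neighbouring genes in their RefSeq order, 1 point per library and 1 colour per strain. pho84 and pho1, between ecl3 and SPNCRNA.446, are not drawn because their counts were not recovered in every library; fub2 separates the double mutant from rrp6Δ, while nrg1 and nam3 are already high in rrp6Δ.

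Among the beta rings of the core particle, whose members include the proteases, the authors' deposited tables called 1 of 7 genes in med20Δ and none in rrp6Δ or the double mutant. The called gene was pre4, which encodes the beta 7 subunit. Its level was 1737, 2330 and 2453 in wild type, 4234, 4957 and 4181 in med20Δ, 2891, 1864 and 2465 in rrp6Δ, and 4525, 3748 and 3131 in the double mutant. All libraries of both strains without med20 lay above all wild-type and rrp6Δ libraries. The authors' deposited table gives a 2.03-fold rise in med20Δ (DESeq adjusted p = 0.042), and limma gave 1.05 ± 0.23 on the log2 scale (adjusted p = 0.0179). That limma call was lost without wild-type library 1 (adjusted p = 0.0604), wild-type library 2 (0.0508) or med20Δ library 2 (0.0887), with log2 differences of 0.89 to 1.14 over the 6 fits. In the double mutant, DESeq gave 0.79 in the authors' deposited table and did not call it (adjusted p = 0.109), while limma gave 0.81 ± 0.23 and did (adjusted p = 0.0162). That call too was lost without wild-type library 1 (adjusted p = 0.0631) or library 1 of the double mutant (0.0702). In rrp6Δ the limma value was 0.14 with a 95% interval of -0.34 to 0.62.

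The other beta subunits leaned the same way in med20Δ without passing the test one by one. All 7 beta genes had a deposited log2 fold change above 0 in med20Δ, with a median of 0.37 and a range of 0.24 to 1.02 in the authors' table. In 4 of them (pre3, pup3, pre1 and pre4) all 3 med20Δ libraries were above all wild-type libraries. Over all 46 genes, 10 were separated upwards in this way and 1 downwards, against backgrounds of 11.2% and 11.6% of the genes tested. In rrp6Δ the counts were 2 and 4, against 14.4% and 12.7%, and in the double mutant 8 and 3, against 20.9% and 19.8%. pre3, the gene of the beta 1 subunit, which cuts after acidic residues, was at 928, 926 and 925 in wild type and 1176, 1600 and 1248 in med20Δ. Its double-mutant levels were 1519, 1523 and 1193, again all above wild type, and its rrp6Δ levels were 894, 1162 and 863. limma called pre3 in the double mutant (0.60 ± 0.20 on the log2 scale, adjusted p = 0.0324), whereas DESeq did not (0.59, adjusted p = 0.28 in the authors' deposited table), and the limma call was lost when any 1 wild-type library, or library 1 or 2 of the double mutant, was left out, with adjusted p up to 0.108. pts1, which encodes the beta 5 protease subunit, was at 0.24, 0.02 and -0.19 in the 3 deposited tables of the authors, not called in any. pup1, the gene of the beta 2 protease subunit, was at 0.42, -0.05 and 0.19 there, not called either.

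The alpha rings had a median above that of the beta rings in med20Δ, and no called gene. Their median log2 fold change in the authors' deposited tables was 0.45 in med20Δ, -0.10 in rrp6Δ and 0.18 in the double mutant, and 6 of 7 values in med20Δ were above 0. pre9 (alpha 3) had the largest alpha value in med20Δ at 0.52 (DESeq adjusted p = 0.582 in the authors' deposited table). Wild-type levels were 2413, 2636 and 2543, those of med20Δ 4457, 3760 and 2796, with no overlap. pre8 (alpha 2) had the largest alpha value in the double mutant at 0.69 (adjusted p = 0.221, DESeq, authors' deposited table). Wild-type levels were 5301, 3515 and 3140 and double-mutant levels 6082, 8205 and 5138, which overlap. limma put pre8 just outside the threshold (0.71, adjusted p = 0.0518) and called it without wild-type library 1 (adjusted p = 0.0208), library 3 of the double mutant (0.0413), med20Δ library 1 (0.04996) or all 4 libraries that stood apart (0.0178). pre10 (alpha 7) stayed near 0 in med20Δ (-0.01) and had -0.29 for the double mutant (authors' deposited tables). It is overlapped on the opposite strand by rrk1, a noncoding RNA that was called higher in rrp6Δ and the double mutant (log2 2.61 and 5.64, authors' deposited tables).

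The 6 ATPases of the regulatory particle, which unfold the substrate, were called in no comparison with wild type by DESeq or, over all 12 libraries, by limma. Without the 4 libraries that stood apart, limma called rpt1 in the double mutant (-0.53, adjusted p = 0.0493). All 6 deposited log2 fold changes were above 0 in med20Δ, with a median of 0.28, and 5 of 6 were below 0 in rrp6Δ, with a median of -0.14. In the double mutant 3 were above and 3 below 0, with a median of 0.02. rpt2 was at 2915, 2920 and 3686 in wild type and 4208, 4606 and 3831 in med20Δ, the only ATPase gene whose libraries did not overlap between these strains. rpt1 levels were 2716, 2647 and 3240 in wild type against 2214, 2259 and 2201 in rrp6Δ, also without overlap (log2 -0.34, DESeq adjusted p = 0.778 in the authors' deposited table). rpt4 was at 3678 to 4292 in wild type and 4905 to 5425 in the double mutant, and rpt3 at 3544 to 3828 and 2827 to 3508, so these 2 ATPase genes lay on opposite sides of wild type.

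The 15 other subunits of the regulatory particle spread on both sides of 0 in every mutant. Their median log2 fold change in the authors' deposited tables was 0.07 in med20Δ, -0.10 in rrp6Δ and -0.06 in the double mutant, with 10, 4 and 5 of 15 above 0, and none was called. rpn3, which encodes a subunit of the lid, was at 4359, 4617 and 4928 in wild type and 2682, 3448 and 3225 in the double mutant, all lower. Its rrp6Δ levels of 4317, 3079 and 3688 were also all below wild type, and its med20Δ levels of 5075, 4005 and 3620 were not. limma called the fall in the double mutant (-0.58 ± 0.21, adjusted p = 0.0472), and DESeq did not (-0.59, adjusted p = 0.278 in the authors' deposited table). The limma value was -0.45 and not called when libraries were scaled to the median protein_coding gene (adjusted p = 0.114), and of the 12 fits that left out 1 library it was called in 3, those without library 2 of the double mutant (adjusted p = 0.0453), med20Δ library 1 (0.0376) or rrp6Δ library 2 (0.0426).

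Over all 12 libraries, no other subunit of this group was called by DESeq or limma. rpn12, a lid subunit, had a deposited log2 fold change of 0.65 in med20Δ (DESeq adjusted p = 0.492, authors' table), at 952, 1779 and 1538 in wild type and 1691, 2915 and 2159 in med20Δ, which overlap. SPCC18.17c was the lowest of the 46 in med20Δ at -0.61 in the authors' deposited table (DESeq adjusted p = 0.496). Its wild-type levels of 785, 550.5 and 543 all lay above the med20Δ levels of 379, 446 and 424. rpn2 and mts4, the large scaffold subunits of the base, had log2 values of -0.38 and -0.44 for the double mutant (authors' deposited table), neither called. rpn2 was at 5978 to 7194 in wild type and 4764 to 5344 in the double mutant without overlap, whereas mts4 ran from 5763 to 9454 and from 3636 to 8012. limma called mts4 lower in the double mutant without its library 2 (-0.83, adjusted p = 0.0311) and without the 4 libraries that stood apart (-0.61, adjusted p = 0.0302). rpn10, which encodes a ubiquitin receptor, was at 0.37, 0.24 and 0.26 in the 3 deposited tables of the authors, uncalled in each. It is overlapped on the opposite strand by SPNCRNA.999, which was called higher in rrp6Δ and the double mutant (2.47 and 2.17, authors' deposited tables). rpn11, the deubiquitinating subunit, was at 0.44, -0.19 and 0.34 there, also uncalled.

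rpn501 and rpn502 are near-identical copies that encode the same lid subunit, and the sources used here do not say how reads were divided between them, so neither is certain as a single gene. They were at -0.04 and -0.12 in med20Δ and at 0.22 and 0.23 in rrp6Δ, among the highest of the 46 there, with -0.05 and -0.06 for the double mutant (authors' deposited tables). None of these values was called. Overlaps with other genes were common: 24 of the 46 genes are overlapped by another listed gene in the RefSeq annotation, 23 of them on the opposite strand and 6 of these by a noncoding RNA. On the same strand, 4 of the 46 are overlapped by a listed gene.

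The assembly factors, associated proteins and ligase subunits were called in no table. Of the chaperones, ump1, which matures the core particle, was at 0.23, -0.01 and 0.18 on the log2 scale in the authors' deposited tables, and pac4, which helps build the core, was at -0.10, 0.01 and -0.05. nas6, a chaperone of the base, was at 0.50 in med20Δ, a value carried by 1 library: its levels were 2020, 848 and 704 there, against 873, 737 and 905 in wild type. nas2, another chaperone of the base, was at 354 to 429 in wild type and 341.8 to 351 in rrp6Δ, without overlap. ecm29, which binds the assembled proteasome, was at 0.00, -0.04 and -0.02 in the authors' deposited tables. cut8, the tether that holds proteasomes at the nucleus, was at 0.33, -0.01 and 0.24 there. txc1, annotated as a proteasome-interacting protein, was the lowest of the 46 in rrp6Δ at -0.52 (DESeq adjusted p = 0.662, authors' deposited table). Its rrp6Δ levels were 957, 1872 and 908, against 2237, 1313 and 1869 in wild type, and library 2 of rrp6Δ was the one that overlapped wild type. gid8 was at 0.24, -0.07 and 0.40 and gid9 at -0.10, -0.28 and -0.07 in the authors' deposited tables.

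**Figure D4:**
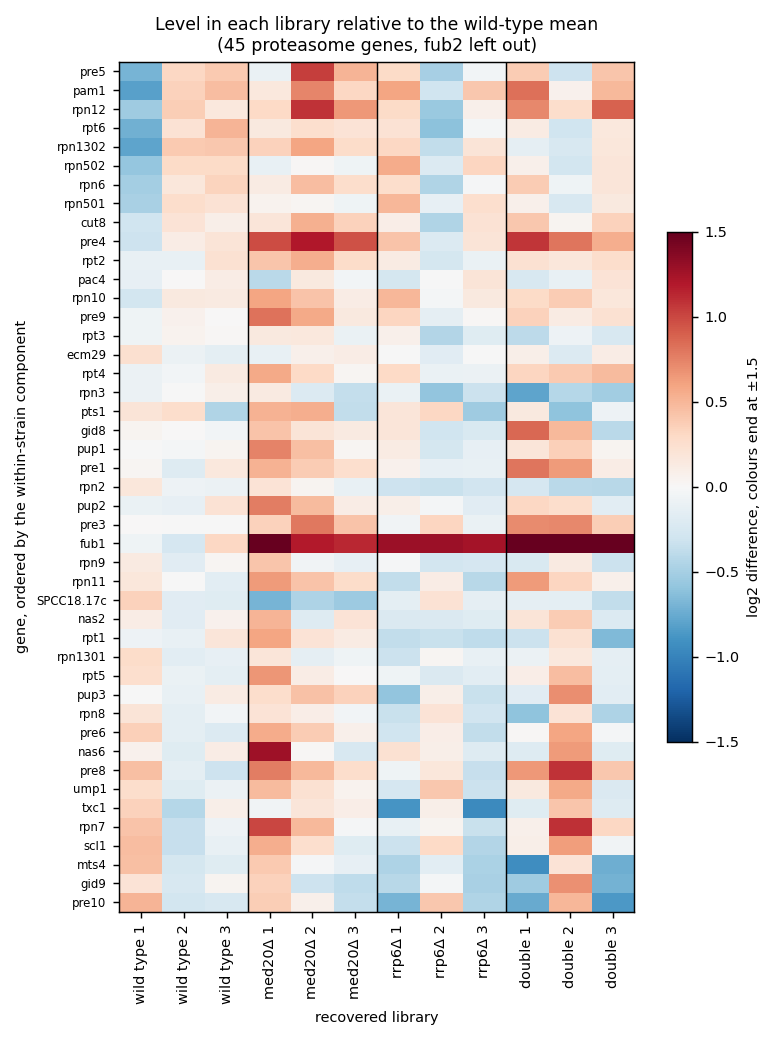
Level of 45 proteasome genes in each recovered library as log2(level + 1) minus the wild-type mean (colour scale ending at ±1.5, fub2 left out), with genes ordered by their score on the within-strain component and 3 libraries per strain. fub1 is high in all mutant libraries and pre4 in both strains without med20, while pre5 and pam1 at the top and pre10 and gid9 at the bottom change sign between libraries of 1 strain.

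The 2 single mutants and the double mutant were also compared with each other. Against med20Δ, limma called 1 of 46 proteasome genes in the double mutant, and against rrp6Δ it called 1, with backgrounds of 14.1% and 8.72% of the genes tested; in both it was fub2. The interaction called 0 of 46, against 0.234%, and 1 of 46 had an unadjusted p under 0.05, against 7.05%. The median log2 difference of the proteasome genes was -0.10 against med20Δ, where all protein_coding genes tested had -0.14, and 0.22 against rrp6Δ, where they had -0.03. In the comparison with rrp6Δ, 9 of 46 genes had all 3 double-mutant libraries above all rrp6Δ libraries, against 14.7%, and none had all below, against 13.1%. These 9 were fub1, fub2, pre1, pre3, pre4, pre8, rpn7, rpt2 and rpt4. pre4 stood 0.67 above rrp6Δ (95% interval 0.18 to 1.15, limma adjusted p = 0.0823) and pre8 0.79 (0.24 to 1.35, adjusted p = 0.074), and neither was called, though pre8 was without wild-type library 1 (adjusted p = 0.0488). Against med20Δ, 3 genes were separated upwards, against 17.3%, and 4 downwards, against 15.2%.

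In simulated counts limma missed most 2-fold differences. The changed genes were drawn at random from all genes, so these rates are not those of the proteasome genes. The simulated counts also lacked the component shared between the real libraries. When 5966 genes were simulated after the med20Δ comparison, limma called 36% of genes raised 2-fold and 40% of those lowered 2-fold, against 78% and 86% at 4-fold. Of the 44 proteasome genes that limma did not call in med20Δ, 35 had a 95% interval within 1 on the log2 scale of no difference. In rrp6Δ this held for 40 of 45 and in the double mutant for 35 of 41. Against med20Δ and rrp6Δ, the double mutant had 38 and 35 of 45 such intervals.

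**Figure D5:**
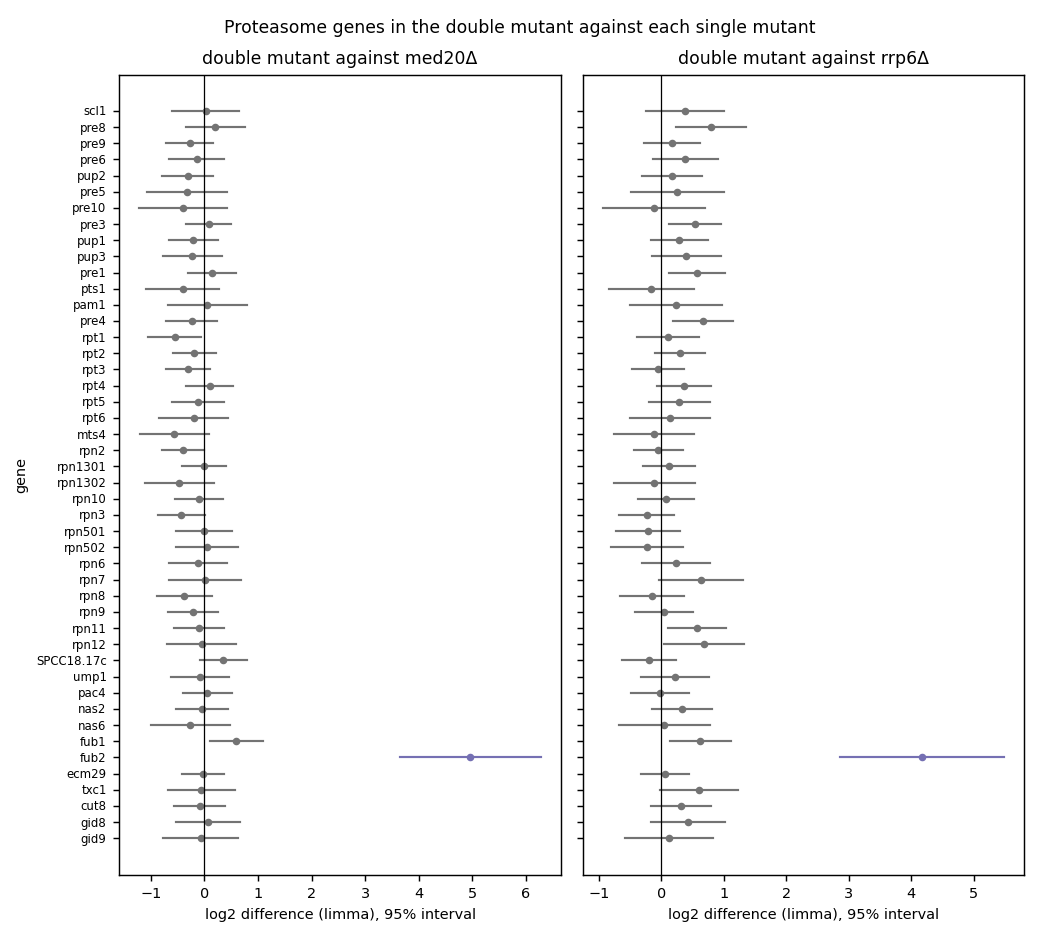
limma log2 difference (x axis) of each of the 46 proteasome genes in the double mutant against med20Δ (left) and against rrp6Δ (right), with 95% intervals and the called gene in purple. fub2 stands at 4.96 and 4.17, and the estimate of every other gene lies within 1 of no difference.

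Some subunit genes of 1 complex went opposite ways between libraries of 1 strain. Over the 45 genes other than fub2, the component that separated the 4 libraries held 65.3% of the remaining within-strain variance. The mean shift of these genes in each library had been taken out first, so scores on both sides were bound to appear. Whether the subunit genes moved together was therefore not tested. pre5 (alpha 6) had the highest score: library 1 of wild type was at 925, against 1850 and 1960 in the others, and library 2 of the double mutant was at 1210, against 1955 and 2001. pre10 (alpha 7), a neighbour of pre5 in the same ring, had the lowest score, at 3272 in wild-type library 1 against 1894 and 1939, and 3241 in library 2 of the double mutant against 1358 and 1260. pam1, rpn12, rpt6 and rpn1302 went with pre5, and gid9, mts4, scl1 and rpn7 went with pre10. The ratio of the highest to the lowest library within 1 strain reached 2.20 for pre5 and 2.57 for pre10, larger than any difference between strains in these 2 genes.

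The genes that feed the proteasome were given for comparison. Of 87 other genes of the ubiquitin pathway (ubiquitin, its activating and conjugating enzymes, ligases, the anaphase-promoting complex, Cdc48 with its partners, deubiquitinating enzymes and the COP9 signalosome), none was called in med20Δ or rrp6Δ in the authors' deposited tables, and 3 were higher and 2 lower in that of the double mutant, against the backgrounds given above. Those higher were the polyubiquitin gene ubi4 (log2 1.81, DESeq adjusted p = 0.00166), the deubiquitinase gene ubp8 (1.31, adjusted p = 0.0155) and the signalosome gene csn2 (1.09, adjusted p = 0.048), and those lower were ubi2, whose product joins ubiquitin to a ribosomal protein (-1.09, adjusted p = 0.0456), and slp1, an activator of the anaphase-promoting complex (-1.17, adjusted p = 0.0127), all in the authors' deposited table. In med20Δ the 87 genes had a median deposited log2 fold change of 0.08. The conjugating enzymes were at 0.31, with 11 of 12 above 0, close to the proteasome genes. Ubiquitin and its activating enzyme were at -0.19, with 1 of 6 above 0. The median of 16 genes listed for heat shock and folding in med20Δ was 0.21, with 11 above 0. Among the 16 was qcr1 (-0.82), which is described as a mitochondrial processing peptidase subunit and not as a heat shock or folding protein. Of these 16, 1 was called in med20Δ (hsp20, higher), none in rrp6Δ and 5 in the double mutant, against the same backgrounds. In the double mutant hsp16 and hsp20, small heat shock genes, were higher by 2.69 and 1.69, and the chaperone genes hsp90, ssa2 and mcp60 were lower (-1.75, -2.33 and -1.18), on the log2 scale of the authors' deposited table. The 4 stress markers called in med20Δ were hsp9, gpx1, zym1 and isp6, whose log2 fold changes (authors' deposited table) were 1.99, 1.30, 1.97 and 1.28. They were called in the double mutant as well, together with ntp1 (1.17). Among the mating type genes, 1 of 7 M-cell genes was called lower in rrp6Δ (mfm2, -1.60) and 1 in the double mutant (mam4, -1.52), and none of 4 P-cell genes was called, in the authors' deposited tables and against the same backgrounds.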

How the data were processed

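RNA was measured in 12 samples, 3 for each of 4 strains. The submitters' processing notes name Bowtie 0.12.7 and DESeq. The sources used here do not give the DESeq version, the counting program, its strand setting, the genome build or the annotation. Per the file headers, the authors deposited the mean normalised signal of each strain (gene counts divided by library size factors), the fold change as a ratio of means, its log2 value, and a p-value with its Benjamini-Hochberg adjusted p-value. Genes were called at a deposited adjusted p under 0.05.

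From its 15 printed digits, a strain mean could be resolved into 3 whole library counts for 95.3% of wild-type, 96.4% of med20Δ, 96.8% of rrp6Δ and 96.9% of double-mutant means. Means above 15000 were not tried. Wild-type counts recovered from the med20Δ table gave the means of the other tables for 6564 of 6564 and 6547 of 6547 genes, and splits of simulated counts held no error. No library had a count under 1, so a count of 1 may stand for none. Whether only empty counts were set to 1 or 1 was added to every count is not stated. In the latter case each low count, such as those of fub2 in wild type, is 1 too high. The values log2(level + 1) of 5988 genes whose mean was at least 10 were fitted for all 4 strains in 1 model with limma 3.58.1 (R 4.3.3), its trend option on. Tested on simulated data, it called 4 of 5766 unchanged genes. Each gene was simulated on its own, without the component shared between the real libraries, so this rate may not hold for them. Symbols and gene order come from RefSeq (ASM294v3), which named 45 of the 46 genes. Intervals are at the 95% level.

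The members and all lists were chosen with earlier results of these data known. Named genes are those called in any comparison, called genes of the other lists, the 4 highest and 4 lowest of each table with a mean of at least 50, fub2 and the deleted genes. pre10, pts1, pup1, rpt2, rpt3, rpt4, rpn11, pac4, nas2, nas6, ump1, ecm29, cut8, gid8, gid9, pre5, pam1, rpt6, rpn1302, scl1, rpn7, pup3, pre1, qcr1, the neighbours of fub2 and the overlapping genes and RNAs were named for their role or pattern after their values were seen.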

Additional observations from a re-analysis of the deposited data

How the results depend on the processing

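Fits without libraries were done with limma, and only the fits that left out all 4 libraries that stood apart were added after seeing the data. In med20Δ the count of called proteasome genes was 2, 0 at an adjusted p under 0.01, and 1 to 2 when 1 library was left out. Its median log2 fold change ran from 0.16 to 0.39 over those fits. In rrp6Δ the count was 1, with 2 at an adjusted p under 0.1, 2 without the 4 libraries (fub1 and txc1, the latter lower) and 1 in each fit without 1 wild-type or rrp6Δ library (2 without library 2 of the double mutant, with fub2 at an adjusted p of 0.0498); the median of -0.05 ran from -0.11 to -0.05 and turned to 0.068 relative to the median protein_coding gene. In the double mutant the count of 2 became 1 at an adjusted p under 0.01, 5 with limma, also at a pseudocount of 0.5 or with no filter on the mean, 6 when scaled to the median protein_coding gene (with pre1 and pre8, without rpn3) and 9 without the 4 libraries; it ran from 2 to 7 when 1 library was left out. Its median of 0.13 was 0.30 relative to the median protein_coding gene and 0.09 to 0.22 without 1 library. Against med20Δ the count of 1 ran to 3 without 1 library (rpt1 and mts4 added, both lower, without library 2 of the double mutant) and was 5 without the 4. Against rrp6Δ it ran from 1 to 2 (txc1 added without rrp6Δ library 2, pre1 without library 3 of the double mutant, and pre8 without wild-type library 1, adjusted p = 0.0488) and was 5 without the 4. Those 2 fits called 24.5% and 17.5% of all genes. The interaction count was 0 to 1, the 1 being fub2. In limma fits fub1 kept its calls against wild type, and fub2 its calls in the double mutant, throughout. The causes were not tested. No paired analysis was possible because the tables hold strain means and the recovered libraries carry no replicate letter.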
